A study of Homo sapiens with 24 samples.

Results

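GAS5 and the small nucleolar RNA host genes (SNHG) were followed through the polysome gradients of MRC5 human lung fibroblasts, with and without oxidative stress (OS). Members were taken by the gene name printed in the array files: every catalog probe named GAS5, or SNHG followed by a number. This gave 12 probes of 10 genes, out of 17448 catalog probes kept and 15041 catalog gene names. The genes were GAS5, SNHG1, SNHG3, SNHG4, SNHG6, SNHG7, SNHG8, SNHG9, SNHG10 and SNHG12, and SNHG1 and SNHG7 had 2 probes each.

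The study asked how long noncoding RNAs move on and off polysomes upon OS. MRC5 cells were left untreated (control) or given 0.2 mM H2O2 for 2 hours (OS), and all received 150 µg/ml cycloheximide for 15 min before harvest. RNA was taken from whole cells (total) or from gradient fractions joined into 3 pools: untranslated (fractions 1 to 9, which hold free RNA particles and also 80S monosomes), low (10 to 14) and high (15 to 23). From every sample 100 ng of RNA was labeled with Cy3 from an oligo-dT primer and hybridized alone to a custom 8x60K Agilent array.

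The 8 groups were control total, control untranslated, control low, control high, OS total, OS untranslated, OS low and OS high, each with 3 independent RNA preparations on 3 arrays. Because an equal mass was labeled from every pool, each value gives the place of a transcript within the RNA of its pool, and the amount of RNA per pool is not in it. The samples are bulk RNA, so fewer cells carrying a transcript and less of it per cell cannot be told apart.

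Host genes of this kind are transcribed so that small nucleolar RNAs, which guide chemical modification of ribosomal RNA, can be cut from their introns. The exons left over are spliced into a transcript with little coding capacity that is exported and can meet ribosomes. Several of these transcripts begin with the terminal oligopyrimidine tract (5' TOP) that ties ribosomal protein mRNAs to mTOR signaling, and they are known substrates of nonsense-mediated decay.

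Signals were put on a log2 scale and quantile normalized among the 17448 catalog probes alone. Groups were compared with limma, with Benjamini-Hochberg adjustment over all tested catalog and custom probes. A comparison tested a probe if all arrays of 1 or more of its groups showed the probe well above background. Changes below are called at an adjusted p of 0.05 or less. Beside the first member count of each comparison stands the share of all tested catalog probes called in the same direction, with quantile normalization.

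Arrays differed in ways that matter for the comparisons between pools. The log2 75th percentile of the catalog probes before normalization ran from 7.37 to 7.69 on the untranslated arrays and from 9.66 to 11.21 on all others, so that the untranslated pools were dimmer throughout. OS low replicate 3 stood apart: 95.4% of catalog probes were well above background on it, against 43.4 to 67.7% on the other 23 arrays. The study removed replicates that did not cluster, without naming them, and all 24 deposited arrays were kept here. The SD of the log2 difference between OS low replicates was 0.363 for 1 and 2, 1.622 for 1 and 3, and 1.637 for 2 and 3. Control total replicate 1 was also further from replicates 2 and 3 (0.946 and 1.043) than those were from each other (0.471). Results were therefore computed again with 75th percentile scaling, without normalization, without OS low replicate 3, and without each array in turn. That scaling took the percentile over the 17448 catalog and 43911 custom probes together, unlike the catalog percentiles given above. On OS low replicate 3, 93.3% of custom probes were well above background, against 14.5 to 36.3% on the other arrays. Each of the 3 slides carried 1 array of every group, and slide was entered as a block in a further fit.

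Transcripts typical of fibroblasts were present. On the 6 total RNA arrays, 6 of 6 fibroblast marker probes were well above background, with COL1A1 at a mean of 17.80 in control and 17.48 upon OS. Of the other cell types, 2 of 6 epithelial probes (SFTPC and SCGB1A1), 1 of 3 probes for the leukocyte gene PTPRC and 1 of 3 endothelial probes (CDH5) were also well above background.

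Of the 12 member probes, 8 were well above background on all 24 arrays, as were 39.0% of catalog probes. These were GAS5, SNHG1, SNHG3, SNHG6, SNHG7, SNHG9, SNHG10 and SNHG12 with 1 probe each. SNHG4 and SNHG8 were not well above background in any complete group (2 arrays and 1 array of 24), nor was the second SNHG1 probe (1 array), and they were left untested. The second SNHG7 probe was complete in control total, OS total and OS untranslated. The 2 SNHG7 probes and the 8 main probes are reported under their own values, and SNHG7 without further naming is the probe seen on all 24 arrays.

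The start sites of the members were read for pyrimidine tracts. Promoter sequences came from RefSeq on GRCh38.p14, and the motif was a C followed by at least 4 bases each C or T, on the strand of the gene, starting within 15 bases of the annotated start. SNHG6 and SNHG9 had no entry in the promoter table. A tract lay within 15 bases of the start in 4 of 8 members (SNHG4, SNHG7, SNHG8 and SNHG12), in 42.6% of 35116 promoters and in 88.5% of 78 ribosomal protein promoters. A match could be read from the annotated first base itself in 2 of 8 members (SNHG4, and SNHG12 inside a tract that opened 1 base earlier), in 4.07% of all promoters and in 60.3% of ribosomal protein promoters. GAS5 had no tract near the annotated start, and its first tract began at base 32 of the transcript. A match is a description of the sequence and no measurement of where transcription began in MRC5. The windows below run 15 bases to either side of the annotated start, with tracts in capitals, for SNHG12 (chr1:28581859-28581888, minus strand), SNHG7 (chr9:136728170-136728199, minus strand), SNHG1 (chr11:62855871-62855900, minus strand), SNHG3 (chr1:28505928-28505957, plus strand) and GAS5 (chr1:173869031-173869060, minus strand, and further downstream at chr1:173868996-173869019).
SNHG12: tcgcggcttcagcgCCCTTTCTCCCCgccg
SNHG7: gCTTCCCTTCTCgtCCTCTgcgtgcgccgg
SNHG1: ccggggagattcgttctcatttttctactg
SNHG3: cctcagtgagtttctgattctctaactgcg
GAS5: tgccatcatgaattcagatgtgtttatttt
GAS5 downstream: cagcgCCTTTTTTgtttgCTCTTT

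GAS5 was well above background in every group and lay lowest in the high pools. Its normalized log2 values for replicates 1, 2 and 3 were 16.02, 15.90 and 15.99 in control total, 17.01, 16.99 and 16.88 in control untranslated, 15.92, 15.93 and 15.98 in control low, and 13.70, 13.80 and 13.44 in control high. Upon OS they were 16.07, 15.97 and 15.99 in total, 16.74, 16.81 and 16.82 in untranslated, 15.54, 15.73 and 15.55 in low, and 13.75, 13.68 and 13.90 in high. All untranslated arrays lay above all total and low arrays, and all high arrays lay below every other array. By group mean and SD the order was control untranslated (16.96 ± 0.07), OS untranslated (16.79 ± 0.04), OS total (16.01 ± 0.05), control total (15.97 ± 0.06), control low (15.94 ± 0.03), OS low (15.61 ± 0.11), OS high (13.78 ± 0.11) and control high (13.65 ± 0.19). The 3 groups in the middle (OS total, control total and control low) were within each other's spread, as were the high pools of control and OS. The place of the untranslated arrays above the low arrays was tied to the normalization: without it GAS5 read 16.29, 16.24 and 16.10 in control untranslated and 17.20, 16.95 and 17.15 in control low, with 14.19, 14.53 and 14.02 in control high.

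**Figure D1:**
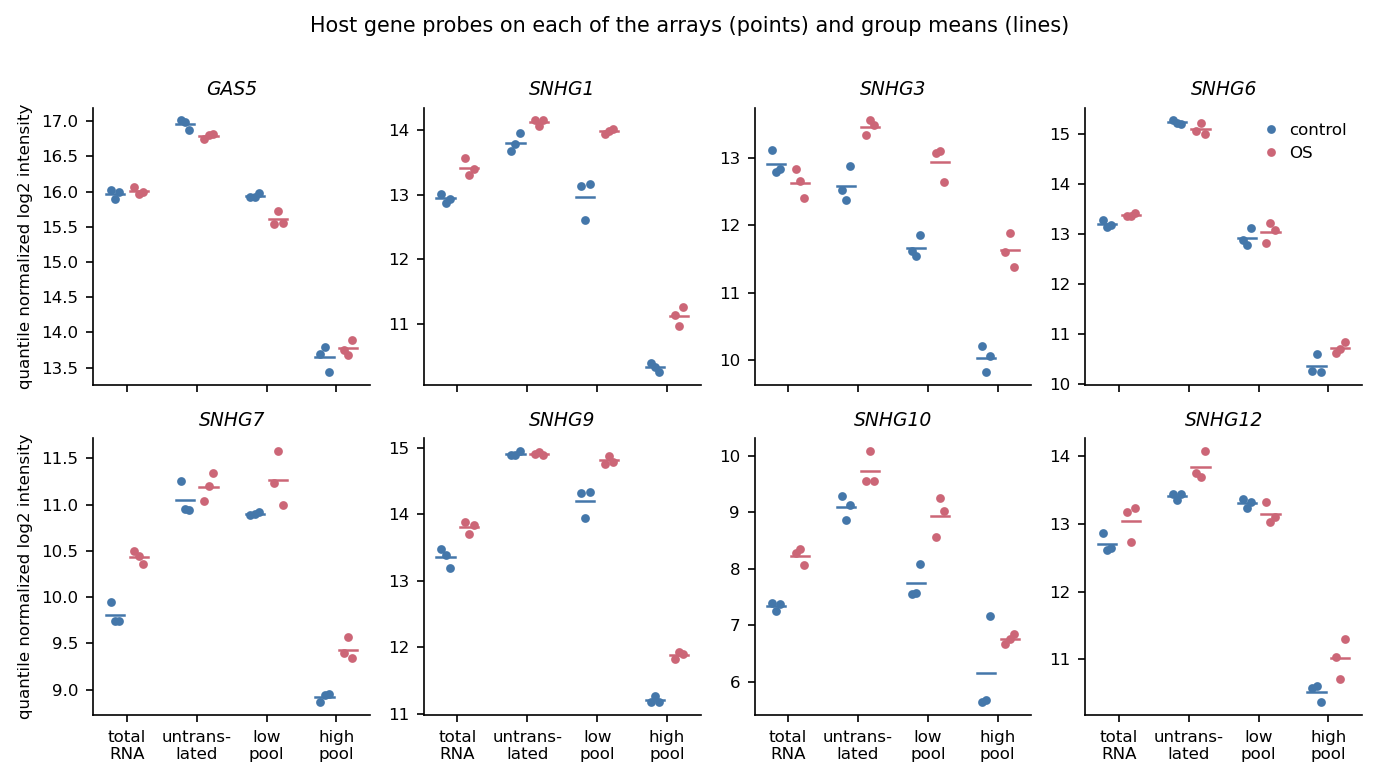
Normalized log2 values of the 8 host gene probes that were well above background on all 24 arrays. Points are arrays, lines are group means of 3 arrays, control in blue and OS in red. Each panel has its own vertical range. Without normalization the untranslated arrays lie below the low arrays for all 8 probes in control.

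Within the polysomes of control cells, the host transcripts had a higher place in the low pool than in the high pool. All 8 probes were lower in the high pool than in the low pool, and 8 of 8 compares with 25.2% of catalog probes lower. The direction was the same with every scaling for each of the 8 probes. Their median difference was -2.43, against 0.03 over all catalog probes tested. Scaled to the 75th percentile these medians were -1.90 and 0.53. Without normalization the median of the members fell by 3.00 and that of all catalog probes by 0.56. SNHG3 did not pass with 75th percentile scaling (-1.09, adjusted p = 0.12), which left 7 called there. With OS low replicate 3 left out of that scaling SNHG3 read the same and passed (adjusted p = 8.2e-05), so that 8 were called.

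SNHG9 fell by 3.00 (SE 0.12, adjusted p = 7.6e-12), the steepest of the 8, with 0.153% of catalog probes below it. It read 14.32, 13.95 and 14.34 in control low and 11.17, 11.27 and 11.18 in control high, with every low array far above every high array. SNHG12 fell by 2.79 (adjusted p = 1.8e-10), from 13.37, 13.23 and 13.32 to 10.58, 10.60 and 10.36. SNHG1, host of several box C/D RNAs, fell by 2.65 (adjusted p = 5.9e-11), from 13.14, 12.61 and 13.17 to 10.39, 10.33 and 10.25. SNHG6 fell by 2.57 (adjusted p = 4.4e-11), from 12.88, 12.79 and 13.12 to 10.26, 10.59 and 10.24. The arrays of the low and high pools did not overlap for any of these. GAS5, the best studied host of the family, fell by 2.30 (SE 0.12, adjusted p = 3.3e-11). SNHG7 fell by 1.99 (adjusted p = 1.8e-09), from 10.89, 10.90 and 10.92 to 8.86, 8.94 and 8.95. SNHG3 fell by 1.64 (adjusted p = 5.9e-07), from 11.62, 11.54 and 11.86 to 10.21, 9.82 and 10.05. The smallest difference was that of SNHG10, at -1.57 (adjusted p = 3.4e-04). It rested on uneven arrays, 7.55, 7.57 and 8.08 in low and 5.63, 5.68 and 7.17 in high, with no overlap. Without control high replicate 3 the SNHG10 difference was -2.08.

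The fall was present on each slide. Within the 3 slides the median difference between high and low was -2.42, -2.17 and -2.72, and 0 of 8 probes lay above 0 on any slide. With slide as a block the adjusted p was 1.5e-10 for SNHG9, 4.2e-10 for GAS5, 1.5e-06 for SNHG3 and 2.7e-04 for SNHG10.

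Upon OS the same placing was found, in a comparison added after the data were seen. All 8 probes were lower in OS high than in OS low, with 21.1% of catalog probes lower and a median of -2.16 against 0.29. GAS5 differed by -1.83 (adjusted p = 6.1e-10), SNHG1 by -2.87 (5.5e-11), SNHG9 by -2.92 (1.2e-11) and SNHG3 by -1.31 (1.3e-05). This count leaned on how OS low replicate 3 was scaled. Scaled to the 75th percentile, 0 of 8 passed under limma while catalog probes called lower went from 2302 to 194 of 10904, SNHG3 turned to 0.41 (adjusted p = 0.58) and the median was -0.50 against 1.29. With that array left out, the same scaling gave 8 of 8 members and 1309 of 10935 catalog probes lower, and a median of -1.49 against 0.63.

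**Figure D2:**
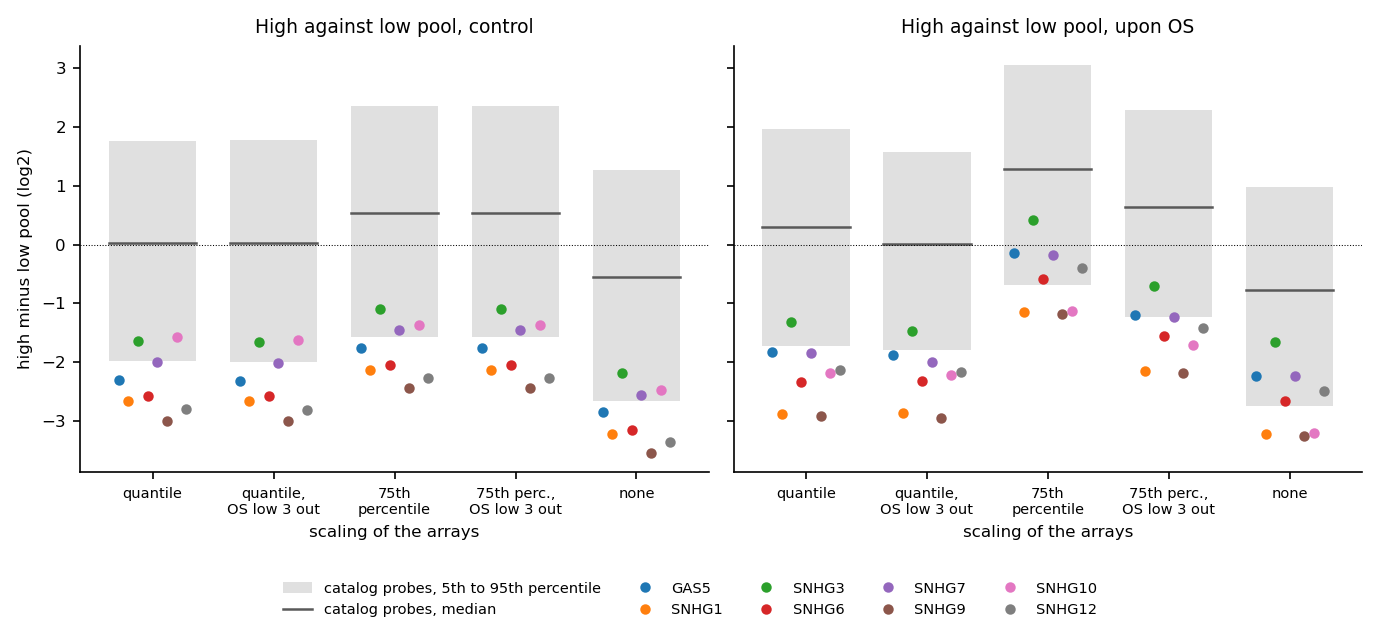
High minus low pool (log2) for the 8 probes in control and upon OS, under quantile normalization, 75th percentile scaling and no normalization, with and without OS low replicate 3. The grey band spans the 5th to 95th percentile of catalog probes and the line is their median. The only probe above 0 is SNHG3 upon OS, with 75th percentile scaling.

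Against the untranslated pool, the host transcripts had a lower place within the RNA of the high pool after normalization. In control 8 of 8 probes were lower, with 30.7% of catalog probes lower and a median of -3.12 against 0.35. SNHG6 fell by 4.88 (adjusted p = 1.2e-14), from 15.28, 15.23 and 15.21 in control untranslated to the values of the high pool above. SNHG9 fell by 3.71 (adjusted p = 6.7e-14), from 14.89, 14.89 and 14.95. SNHG1 fell by 3.48 (adjusted p = 4.8e-13) and GAS5 fell by 3.31 (adjusted p = 1.0e-13). All arrays of the untranslated pool lay above all arrays of the high pool for these 4 genes. SNHG10 fell by 2.93 (adjusted p = 1.2e-07), SNHG12 fell by 2.91 (3.1e-11) and SNHG3 fell by 2.57 (7.1e-10). SNHG7 had the smallest fall, 2.14 (adjusted p = 2.8e-10).

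The size of these falls depended on the scaling. Scaled to the 75th percentile, 6 of 8 members and 909 of 9880 catalog probes were lower, and the median was -1.94 against 1.64. With OS low replicate 3 left out of that scaling, 8 of 8 members and 1452 of 9880 catalog probes were lower, with both medians unchanged. Beside the 8 of 8 members lower after quantile normalization, 41.9% of catalog probes were higher. Without normalization 4 members were lower and 1 higher, where 329 of 9880 catalog probes were lower and 8097 higher, and the median was -0.73 against 2.85. The probe that turned was SNHG7 (0.71, adjusted p = 0.0036), and SNHG3 read 0.29 (adjusted p = 0.25). In no scaling did any of the 8 lie above the catalog median. Within slides the median was -3.26 on each of the 3.

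Upon OS the 8 probes seen on all arrays were again lower in the high than in the untranslated pool, with 27.9% of catalog probes lower. The second SNHG7 probe was not well above background in OS high and is left out of this count. The median of the 8 was -2.99, against 0.36 over all catalog probes. No member was higher, beside 40.4% of catalog probes. Scaled to the 75th percentile, the median of the 8 was -1.78 against 1.58. SNHG7 (-0.16, adjusted p = 0.81) and SNHG3 (-0.38, 0.57) did not pass there. Without normalization 4 of the 8 were lower, as were 317 of 10189 catalog probes, and 2 were higher, as were 8333 catalog probes. The higher were SNHG7 at 0.99 (adjusted p = 2.1e-04) and SNHG3 at 0.77 (adjusted p = 0.0044), with a median of -0.62 over the 8 against 2.73. These comparisons share their high arrays with those against the low pool.

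No direction can be given for the family between the low and untranslated pools of control cells. With quantile normalization 6 of 8 probes were lower in low (17.3% of catalog probes), with 30.8% higher, whereas without normalization 8 of 8 members and 9685 of 10211 catalog probes were higher. The median was -0.88 against 0.26 with quantile normalization, -0.04 against 1.08 with 75th percentile scaling and 2.26 against 3.38 without normalization. In all of these 0 of 8 probes lay above the catalog median. SNHG6 differed most with quantile normalization (-2.31, adjusted p = 7.6e-10), followed by SNHG10 (-1.36, 0.0016) and GAS5 (-1.01, 1.9e-06). Without normalization the same probes read 0.45, 1.85 and 0.89. SNHG7 (-0.15, adjusted p = 0.44) and SNHG12 (-0.11, adjusted p = 0.62) did not pass with quantile normalization.

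In total RNA, 7 of the 8 main probes lay above the catalog median for OS against control in each scaling, though calls were few and depended on scaling. Of 9 tested probes 3 were higher upon OS, and 0 were lower, against 3.00% and 2.77% of catalog probes, and the median was 0.36 against -0.02. The direction of the median relative to all genes held in each scaling, with 0.18 against -0.19 at the 75th percentile and 0.09 against -0.29 without normalization, where 0 of 9 passed under limma. SNHG7 rose by 0.62 (SE 0.15, adjusted p = 0.0094), from 9.95, 9.74 and 9.74 to 10.50, 10.44 and 10.36, without overlap. SNHG7 was the only member to stay called without any 1 array, at 0.59 to 0.70. It read 0.40 with 75th percentile scaling and 0.30 without normalization, and passed in neither. SNHG1 rose by 0.49 (SE 0.14, adjusted p = 0.046), from 13.01, 12.87 and 12.93 to 13.57, 13.31 and 13.39. The call of SNHG1 was lost without any of the 6 total arrays, with estimates of 0.42 to 0.54. SNHG1 read 0.33 with 75th percentile scaling and 0.24 without normalization, and passed in neither. SNHG9 rose by 0.46 (SE 0.12, adjusted p = 0.023), from 13.47, 13.38 and 13.19 to 13.88, 13.70 and 13.84. It was lost without control total replicate 2 (adjusted p = 0.06) or 3 (0.13), or OS total replicate 1 (0.11) or 3 (0.086).

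GAS5 in total RNA differed by 0.04 (95% confidence interval -0.20 to 0.29, adjusted p = 0.98). SNHG10 differed by 0.89 (SE 0.31, adjusted p = 0.099) with 7.39, 7.25 and 7.37 in control and 8.28, 8.35 and 8.06 upon OS, which do not overlap. A fit of the total arrays alone left the value as it was and called it, the fourth member so called. SNHG12 (0.34, adjusted p = 0.33), SNHG6 (0.18, 0.63) and SNHG3 (-0.29, 0.54) did not pass either. Within slides SNHG7 differed by 0.55, 0.70 and 0.62, SNHG1 by 0.56, 0.44 and 0.47, and SNHG9 by 0.42, 0.31 and 0.65. With slide as a block the adjusted p was 0.014, 0.045 and 0.033 for these 3 genes.

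In the untranslated pool 1 of 9 tested probes was higher upon OS and 0 were lower, against 14.1% and 13.2% of catalog probes. This was SNHG3, which rose by 0.87 (SE 0.19, adjusted p = 0.0026), from 12.52, 12.38 and 12.88 to 13.35, 13.56 and 13.50. The OS arrays all lay above the control arrays. SNHG3 read 0.97 with 75th percentile scaling and did not pass (adjusted p = 0.71), and it passed with that scaling once OS low replicate 3 was left out (adjusted p = 0.0018). SNHG12 read 0.43 (adjusted p = 0.089), and 0.048 was its adjusted p without OS low replicate 3. GAS5 (-0.17, adjusted p = 0.39), SNHG1 (0.32, 0.15) and SNHG10 (0.64, 0.18) did not pass. The median over the 9 was 0.32 against -0.04. The second SNHG7 probe was among the 9 only through OS untranslated, as it was not complete in control untranslated. Over the 8 probes seen on all arrays the median was 0.23.

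In the low pool 4 of 8 tested probes were higher upon OS and 0 were lower, against 4.29% and 5.09% of catalog probes. SNHG3 rose by 1.26 (adjusted p = 3.1e-04), from 11.62, 11.54 and 11.86 to 13.07, 13.10 and 12.64. SNHG1 rose by 1.01 (adjusted p = 2.4e-04), from 13.14, 12.61 and 13.17 to 13.94, 13.99 and 14.01. Neither gene had a control array that reached an OS array. SNHG9 rose by 0.61 (adjusted p = 0.0046) and SNHG10 by 1.21 (SE 0.31, adjusted p = 0.022). The call of SNHG10 was lost without control low replicate 1 (adjusted p = 0.09) or 2 (0.092). GAS5 read -0.34 (adjusted p = 0.083), and its low arrays of control and OS did not overlap.

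The rise in the low pool depended on scaling, and its calls also on the fit. The median of the 8 probes was 0.49 against -0.18 with quantile normalization, -0.76 against -1.01 with 75th percentile scaling and 0.15 against -0.10 without normalization, so its sign turned with the second of these while its place above the catalog median did not. With 75th percentile scaling 0 of 8 passed under limma, SNHG3 read 0.01 (adjusted p = 0.99), and SNHG1 (-0.28, 0.68) and SNHG9 (-0.70, 0.3) turned. Leaving OS low replicate 3 out of that scaling brought back SNHG3 alone (1.13, adjusted p = 0.0024), with SNHG1 at 0.71 (0.068). A fit of the low arrays alone also gave 0 of 8 in limma, with the estimates themselves unchanged. Without normalization SNHG3 (0.92, adjusted p = 0.014) and SNHG10 (1.32, 0.034) passed. With OS low replicate 3 left out 5 of 8 passed, beside 632 of 10833 catalog probes, SNHG3 at 1.42 and SNHG7 added at 0.50 (adjusted p = 0.02). Within slides SNHG3 differed by 1.46, 1.56 and 0.77 and SNHG1 by 0.80, 1.39 and 0.84.

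In the high pool 4 of 8 tested probes were higher upon OS, against 3.08% of catalog probes. The median was 0.56 against -0.01, and all 8 probes lay above the catalog median in every scaling. SNHG3 rose by 1.60 (fold change 3.02, adjusted p = 1.9e-05), from 10.21, 9.82 and 10.05 to 11.60, 11.89 and 11.38. The lowest OS array of SNHG3 was well above its highest control array. SNHG1 rose by 0.79 (adjusted p = 0.0018), from 10.39, 10.33 and 10.25 to 11.14, 10.96 and 11.25. SNHG9 rose by 0.68 (adjusted p = 0.0015), from 11.17, 11.27 and 11.18 to 11.82, 11.93 and 11.90. Control and OS arrays were apart for both genes. SNHG7 rose by 0.52 (adjusted p = 0.043), from 8.86, 8.94 and 8.95 to 9.40, 9.57 and 9.34. The call of SNHG7 was lost without any of the 6 high arrays, with estimates of 0.45 to 0.57, and with slide as a block its adjusted p was 0.059.

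GAS5 in the high pool differed by 0.13 (adjusted p = 0.87), and its control and OS arrays overlapped. SNHG6 (0.35, adjusted p = 0.18), SNHG12 (0.50, 0.11) and SNHG10 (0.59, 0.44) did not pass. SNHG10 had its arrays overlapping through control high replicate 3, and it read 1.03, 1.08 and -0.33 within slides. Within slides SNHG3 differed by 1.38, 2.07 and 1.33, and SNHG9 by 0.66, 0.65 and 0.73. With 75th percentile scaling 0 of 8 passed under limma, where catalog probes called higher also went from 316 to 80 of 10266, and SNHG1 (0.70, adjusted p = 0.042) and SNHG3 (1.51, 3.2e-05) did so with OS low replicate 3 left out. Without normalization SNHG3 alone passed (1.45, adjusted p = 4.1e-04), and the median was 0.45 against -0.16.

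**Figure D3:**
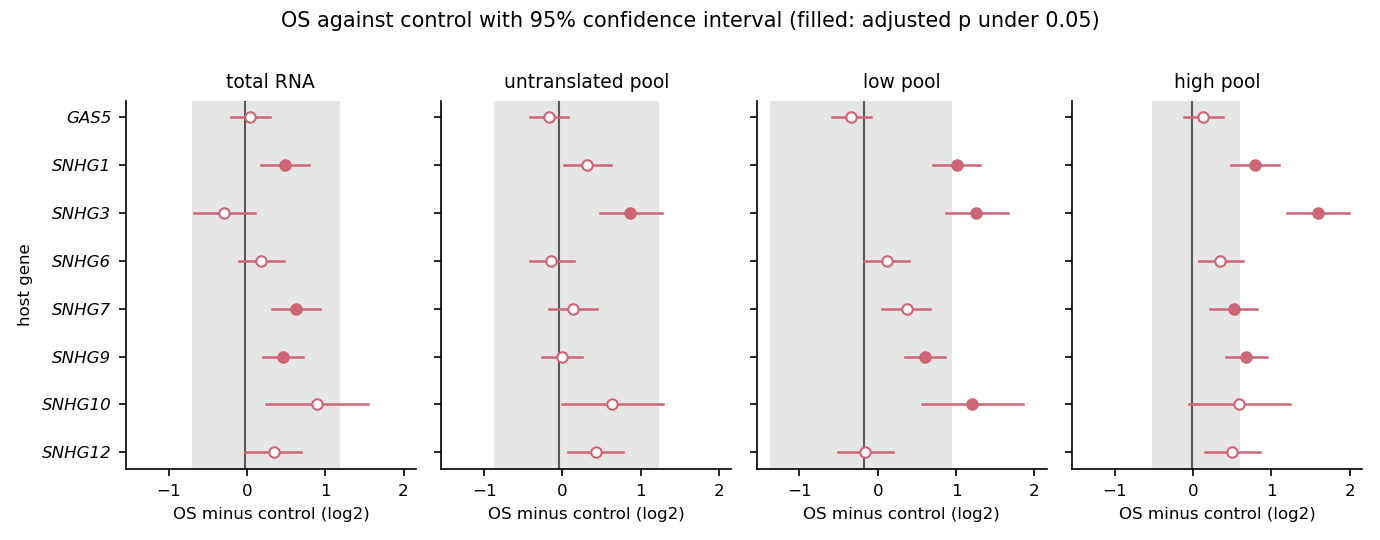
OS minus control (log2) with 95% confidence intervals in total RNA and in the 3 pools for the 8 host gene probes. Filled symbols passed an adjusted p of 0.05 in limma. The grey band spans the 5th to 95th percentile of catalog probes and the line is their median. No symbol would be filled with 75th percentile scaling, and SNHG1, SNHG6, SNHG7 and SNHG9 turn below 0 in the low pool.

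SNHG3 stood out as the member whose pools changed upon OS while total RNA did not follow. The OS effect in each pool was set against the OS effect in total RNA by an interaction test, added after the data were seen. SNHG3 was the only 1 of 9 tested probes called higher in each: 1.16 for untranslated (SE 0.26, adjusted p = 0.0099), 1.55 for low (0.0023) and 1.88 for high (2.9e-04). The shares of catalog probes higher were 6.99%, 1.59% and 0.933%. In the untranslated pool no member was lower beside 3.45% of catalog probes, and SNHG7 (-0.49) and SNHG9 (-0.46) passed as lower once OS low replicate 3 was left out. The values of SNHG3 in total RNA were 13.12, 12.80 and 12.84 in control and 12.84, 12.66 and 12.40 upon OS. These overlap, and they lean the other way from the pools. The contrast with total RNA was not peculiar to SNHG3: the 6 fibroblast markers had medians of 1.21, 0.84 and 0.62 in it, with 3, 2 and 1 of them called higher.

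No single array carried the interaction of SNHG3. Without each array in turn it ran from 1.04 to 1.31, from 1.43 to 1.70 and from 1.75 to 2.00 in the 3 pools, and it passed each time. With slide as a block the adjusted p was 0.013, 0.0036 and 6.1e-04. Scaled to the 75th percentile it read 1.42, 0.46 and 1.97 and did not pass (adjusted p = 0.6, 0.73 and 0.51), whereas with OS low replicate 3 left out it passed there in all 3 (0.002, 0.0043 and 1.9e-04). Without normalization it read 1.51, 1.47 and 1.99, and only the low pool did not pass (adjusted p = 0.051).

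The shift between the untranslated and high pools upon OS was taken as the OS effect in high less the OS effect in untranslated. Of 9 tested probes 1 was higher, against 6.87% of catalog probes, and the median was 0.38 against 0.02. The second SNHG7 probe was again among the 9 only through OS untranslated. Over the 8 probes seen on all arrays the median was 0.43. SNHG9 shifted by 0.68 (SE 0.17, 95% confidence interval 0.32 to 1.04, adjusted p = 0.018). Its untranslated arrays were level between control and OS, at 14.89, 14.89 and 14.95 and at 14.91, 14.93 and 14.89, while its high arrays lay apart. Without each array in turn the shift of SNHG9 was 0.66 to 0.72 and passed throughout, and with slide as a block its adjusted p was 0.026. It did not pass with 75th percentile scaling (0.66, adjusted p = 0.98) or without normalization (0.60, 0.33).

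GAS5 shifted by 0.30 (adjusted p = 0.34), SNHG1 by 0.47 (0.19), SNHG3 by 0.72 (0.11) and SNHG6 by 0.49 (0.13), none of which passed. Without OS low replicate 3, an array in neither pool, SNHG3 (0.73, adjusted p = 0.033) and SNHG6 (0.50, 0.049) passed beside SNHG9 (0.0037). SNHG10 read -0.04 and SNHG12 0.08. Counted from the low instead of the untranslated pool, a comparison added after the data were seen, the shift had a median of 0.19 against 0.23. The median was 1.38 against 0.90 with 75th percentile scaling and 0.40 against -0.07 without normalization. With OS low replicate 3 left out of normalization and fit it was 0.13 against 0.04. Its place relative to all catalog probes thus turned, and no member passed in any of these.

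Some of the genes could be read a second time on custom probes of the array, though SNHG3 and SNHG10 could not. For GAS5, SNHG6 and SNHG9, 5 custom probes carried the same 60 bases as a catalog probe seen on all 24 arrays and were normalized apart, among custom probes. The OS effects of the pairs lay within 0.18 in total RNA, and within 0.35, 0.20 and 0.19 in the untranslated, low and high pools. Their signs were alike in 5 of 5 pairs in total RNA, 2 of 5 in the untranslated pool, and 3 of 5 in each of low and high. SNHG9 in total RNA read 0.28 on its custom probe (adjusted p = 0.32) beside 0.46. The second SNHG7 probe also had a custom copy, which read 0.17 beside 0.36 for OS in total RNA. Differences between pools were less alike, up to 1.22 apart for high against low and 2.33 for high against untranslated. High against low kept its sign in 5 of 5 pairs, with GAS5 at -1.08 and -1.15 on custom probes beside -2.30. Low against untranslated kept its sign in 2 of 5 pairs, with GAS5 at 0.10 and 0.09 beside -1.01. The shift of GAS5 turned to -0.25 and -0.14 beside 0.30, none of which passed. The shift of SNHG9 was 0.57 on its identical custom probe (adjusted p = 0.08), and 0.69 (0.019) and 0.75 (0.0092) on custom probes sharing part of its sequence. SNHG1 was read by 2 custom probes sharing part of its sequence. For OS they read 0.53 (adjusted p = 0.02) and 0.39 (0.13) in total RNA. They read 0.88 (5.2e-04) and 0.97 (3.6e-04) in low, and 0.66 (0.0056) and 0.63 (0.012) in high. In the untranslated pool neither passed (0.31 and 0.39). For low against untranslated in control, an SNHG12 custom probe sharing part of its sequence read 0.93 (adjusted p = 5.7e-04) beside -0.11.

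Further hosts were present under other names. By transcript accession C7orf40 is SNHG15, LOC388796 is SNHG17, LOC100505806 is SNHG18 and ZNFX1-AS1 is ZFAS1; these 4 were chosen after values were seen and are outside the member counts. In control all 4 were lower in high than in low in every scaling, with a median of -2.78: SNHG15 at -3.03 (adjusted p = 7.6e-12), SNHG17 at -2.32, SNHG18 at -2.53 and ZFAS1 at -3.12 (9.6e-12). ZFAS1 read 15.18, 14.89 and 15.14 in control low, 12.05, 12.05 and 11.75 in control high, and 12.04, 12.05 and 12.02 in OS high. The high arrays of control and OS overlapped, and the median OS effect over these 4 was -0.02 in the high pool. In the low pool, where 4 of 8 members were higher, none of these hosts was higher and 1 was lower (median -0.35). In the untranslated pool SNHG15 (-0.56, adjusted p = 0.0022) and SNHG17 (-0.47, 0.041) fell upon OS. Their tested shift had a median of 0.35.

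Cytosolic ribosomal protein mRNAs, the main class of TOP mRNAs, were set beside the hosts by counts. In control 46 of 72 probes were lower and 6 higher in high than in low, with a median of -0.77 against 0.03, while 24.8% of catalog probes were higher. The median was -0.45 against 0.53 with 75th percentile scaling and without normalization -1.55. The lowest were RPS29 (-2.41) and RPL23A (-2.40), whereas RPL3 (0.84) and RPL4 (1.00) were higher in the high pool. Upon OS 22 of 71 probes fell in the high pool (2.24% of catalog probes), with a median of -0.31, among them RPL13A (-1.25, adjusted p = 9.5e-07) and RPSA (-1.09). Their shift was lower for 25 of 71 (7.37% of catalog probes) with a median of -0.36, and RPL5 (-1.62) and RPL13A (-1.51) led it. In the high pool and for the shift the medians were -0.38 and -0.60 with 75th percentile scaling, where no ribosomal protein probe passed in either. The hosts had their medians of 0.56 and 0.38 in the same comparisons.

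The other lists were read in the same way. Other TOP mRNAs were placed unlike the hosts in control, with 12 of 18 higher in high than in low (median 0.97), although without normalization 2 were lower and none higher (median -0.02 against -0.56). EEF2 (1.89) and EEF1A1 (1.57) were among the higher. Upon OS 9 of 18 fell in the high pool (median -0.48) and 11 of 18 had a lower shift (median -0.85), EEF1A1 at -1.32 and -1.58. None of the 18 passed in either with 75th percentile scaling. Protein-coding snoRNA hosts were split between the pools in control, 10 higher and 14 lower of 34 (median -0.15, turning to 0.09 against 0.53 with 75th percentile scaling), and 12 of 34 fell in the high pool upon OS (median -0.40). Their shift was lower for 15 of 34 (median -0.65), and 75th percentile scaling again left none called in the high pool or for the shift. Of 7 probes for snoRNP proteins, 4 were higher in high than in low, among them DKC1 (1.65), and 2 were lower, NOP10 (-2.94) and SNU13, listed as NHP2L1 (-2.25), with a median of 0.87. They had medians of 0.20 for OS in the high pool and 0.44 for the shift.

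Lists tied to decay and to mTOR were also read upon OS. Nonsense-mediated decay factors had a median of -0.32 for OS in total RNA and -0.09 in the high pool, and their shift had a median of -0.20 against 0.02 with 1 of 8 probes higher (MAGOH, 1.11, adjusted p = 0.011). Known decay substrates had 4 probes higher and 1 lower upon OS in total RNA (median 0.20), among them ATF3 (4.83), with MAP3K14 lower (-0.93). ATF3 reached 5.95 in the high pool, where the list again had 4 higher and 1 lower (median 0.18). In the low pool 6 of 11 were higher and 2 lower (median 0.59 against -0.18), and the shift had 4 higher and 1 lower (median 0.34). Of 15 probes for mTOR components and TOP binding proteins, SESN2 rose in the high pool (1.40) and in total RNA (1.67) and RPTOR fell in total RNA (-0.53). Their median in the high pool was -0.01. In the untranslated pool 4 of 13 tested probes were higher and 3 lower, against 14.1% and 13.2% of catalog probes. For the shift 2 of 15 were higher and 4 lower (median -0.11). The nuclear reference MALAT1 was read by 1 probe that was not well above background throughout the high pools, and in total RNA it differed by -1.03 upon OS (adjusted p = 0.54).

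**Figure D4:**
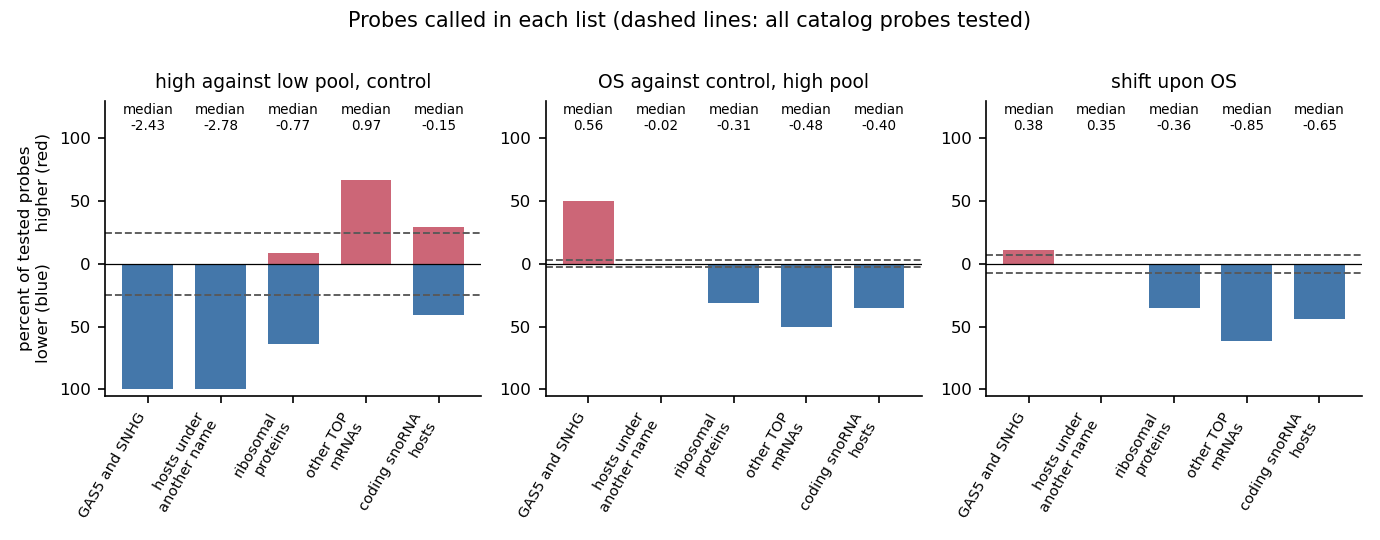
Percent of tested probes higher and lower for the host gene members, hosts under another name, ribosomal protein mRNAs, other TOP mRNAs and protein-coding snoRNA hosts, for high against low in control, OS in the high pool, and the shift. Printed numbers are median log2 values and dashed lines are all catalog probes. Values are quantile normalized. With 75th percentile scaling no member passes for OS in the high pool or for the shift, and the median of the members stays above that of all catalog probes.

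The profile of GAS5 over the 24 arrays was compared with all others. Of 11448 probes the closest were RPS29 (Pearson r = 0.992, n = 24), ZNF525 (0.990), RPS27 (0.989), COMMD6 (0.985) and ZNFX1-AS1, the host ZFAS1 (0.984). Among the members SNHG6 followed GAS5 most closely (0.98) and SNHG3 least (0.79), with SNHG12 at 0.95, SNHG1 and SNHG9 at 0.92, SNHG7 at 0.83 and SNHG10 at 0.82. These correlations mostly reflect the differences between the 8 groups, and 24 arrays are not 24 independent conditions.

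Several bounds apply to these values. Scaling between pools was decisive for low against untranslated, where no direction can be given, and it also altered the size of the other differences between pools and turned SNHG7 and SNHG3 in some of them. With 75th percentile scaling, calls of SNHG3 for OS in the pools and for high against low depended on including OS low replicate 3. SNHG10 in total RNA passed or not according to which arrays entered the fit. Polysome position is not protein synthesis, and whether ribosomes translate the hosts was not measured. Small nucleolar RNAs themselves are not read by an oligo-dT label. SNHG4 and SNHG8 could not be followed, and the cause of the SNHG3 and SNHG9 results was not tested.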

How the data were processed

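The deposited array files hold intensity values read by the authors with Feature Extraction 10.7.3.1 (background-corrected processed signal). The deposited log2 table, made by the authors, differs by at most 0.0014 from quantile normalization over all probes; it served only as an alternative. Processed signals were put on a log2 scale and quantile normalized for catalog and custom probes separately. Control spots and 178 probes marked as outliers were removed. Groups were compared with limma 3.58.1 in R 4.3.3, Benjamini-Hochberg adjusted over tested probes of both kinds at 0.05. The normexp alternative used an offset of 50. Tables were made with Python 3.11.15, pandas 2.3.3 and numpy 2.4.6. The code was tested on simulated data. Members are catalog probes named GAS5 or SNHG with a number; members and lists were chosen with earlier results of these data known. Probe locations followed GRCh37. Control untranslated replicates 1 and 2 share a number in their labels. The SD of their log2 difference (0.851, against 0.854 and 0.759) gave no reason to drop either, and both were kept. This SD cannot show whether they were separate preparations. With the 2 averaged into 1, 119 of 119 member estimates kept their direction and side of the threshold or stayed uncalled.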

Additional observations from a re-analysis of the deposited data

Results flagged for a closer look

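SNHG3 stood out because its OS effect differed between total RNA and each gradient pool in a tested interaction. The OS effect exceeded that in total RNA by 1.16 for untranslated, 1.55 for low and 1.88 for high RNA. No other member probe was called higher by this test. All 3 calls were lost with 75th percentile scaling (1.42, 0.46 and 1.97, adjusted p = 0.6, 0.73 and 0.51). With OS low replicate 3 left out of that scaling all 3 passed (1.42, 1.58 and 1.97, adjusted p = 0.002, 0.0043 and 1.9e-04). Fibroblast markers had medians of 1.21, 0.84 and 0.62 in the same contrasts.

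SNHG9 was flagged because its OS effect differed between pools, though 15.1% of catalog probes lay above it for this shift. The fall from untranslated to high was smaller upon OS (-3.02) than in control (-3.71), a difference of 0.68. The call was lost with 75th percentile scaling (0.66, adjusted p = 0.98) and without normalization (0.60, 0.33). Of catalog probes 6.87% were called in the same direction. With 75th percentile scaling these went from 712 to 7 of 10369.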

How the results depend on the processing

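Replicate block and pairing. Same-number correlations of OS and control arrays, after group means were removed, were 0.09, -0.01 and 0.12 in total RNA, -0.20, -0.03 and 0 in untranslated, 0.14, -0.04 and 0.03 in low, and 0.16, -0.07 and 0.28 in high. They were not all above 0.1, so no pairing was assumed and the mean was 0.0791 over same numbers and -0.0395 over other numbers (0.1057 and -0.0528 for same and other slides). With a replicate block the estimates stay and 1 call was lost, that of SNHG7 upon OS in the high pool (0.52, adjusted p = 0.055). Slide as a block lost the same call (adjusted p = 0.059).

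Of 2644 recomputed estimates, 2517 kept their direction and side of the threshold or stayed uncalled. The larger moves of counts follow, with some smaller ones. No normalization, 75th percentile scaling without OS low replicate 3, high against low upon OS, the shift counted from the low pool, and the comparisons of pools with total RNA were chosen after seeing the data.

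Scaling to the 75th percentile. The number of member probes higher upon OS was 0 of 9 in total RNA, 0 of 9 in untranslated, 0 of 8 in low, 0 of 8 in high and 0 of 9 for the shift. In the low pool SNHG9 (-0.70) and SNHG1 (-0.28) reversed. Low against untranslated in control had 2 lower, with SNHG3 (0.17) and SNHG1 (0.08) reversed. High against untranslated had 6 of 8 lower in control and 7 of 9 upon OS, and high against low in control had 7 of 8. The 9 tested upon OS include the second SNHG7 probe, which was left out of the count in the Results. High against low upon OS had 0 lower, with SNHG3 (0.41) reversed. The OS effect less that in total RNA gave 0 higher for untranslated, 0 for low and 0 for high.

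Scaling to the 75th percentile without OS low replicate 3. Counts higher upon OS were 0 in total RNA, 1 in the low pool, 2 in the high pool and 0 for the shift. Low against untranslated in control had 2 higher and 2 lower, with SNHG7 (0.96), SNHG12 (0.88), SNHG3 (0.17) and SNHG1 (0.08) reversed.

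No normalization. Counts higher upon OS were 0 in total RNA, 2 in the low pool, 1 in the high pool and 0 for the shift, and 0 for the low pool less total RNA. High against untranslated had 1 higher and 4 lower in control, with SNHG7 (0.71) and SNHG3 (0.29) reversed, and 2 higher and 4 lower upon OS, with SNHG7 (0.99) and SNHG3 (0.77) reversed. Low against untranslated in control had 8 higher and 0 lower: SNHG6 (0.45), SNHG10 (1.85), GAS5 (0.89), SNHG7 (3.27), SNHG12 (3.18), SNHG9 (2.13), SNHG3 (2.47) and SNHG1 (2.39).

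Other settings. With OS low replicate 3 left out of normalization and fit, 2 probes were higher upon OS in the untranslated pool, 5 in low and 5 in high, 3 had a higher shift, and 2 had a lower untranslated effect relative to total RNA. With only the groups compared in the fit, 0 were higher upon OS in the low pool and 4 in total RNA, with estimates unchanged. Without moderation 1 was lower upon OS in the low pool, 2 had a higher shift and 1 had a lower untranslated effect relative to total RNA. Without a filter on dim probes 0 of 12 had a higher shift.

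Each array left out. The count higher upon OS in total RNA ran from a lowest of 1 to a highest of 2. The count lower upon OS in the low pool ran from 0 to 1, the 1 being without OS low replicate 2. The count higher upon OS ran from 3 to 5 in the low pool and from 3 to 4 in the high pool. No called estimate reversed; over all settings 63 uncalled estimates took the other sign. The cause of these changes was not tested.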
